A study of Homo sapiens with 6 samples.

Results

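The distal end of the long arm of human chromosome 19, band 19q13.43, carries a dense array of genes for zinc finger proteins, and 48 of them were followed here through a knockdown of the splicing factor SLU7. The 48 were taken from a fixed list of symbols, of which all were found among the 60607 genes of the deposited tables. On GRCh38 they lie between chr19:56375846-58481230, a stretch of 2105385 bases that also holds 95 other annotated genes. All 48 are annotated as protein coding. The cells were PLC/PRF/5, an established human hepatocellular carcinoma line. One group of 3 libraries came from cells transfected with the control siRNA siGL2, which the labels call irrelevant, and the other group of 3 from cells transfected with siRNAs against SLU7. Polyadenylated RNA was collected 48 h later in both groups. The labels speak of triplicates and do not say whether these were separate cultures, so p-values measure the spread between these libraries, which may be technical. In bulk RNA, fewer cells of a type and less RNA per cell cannot be told apart.

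Most proteins of this array join a row of C2H2 zinc fingers, each of which reads a few bases of DNA, to a KRAB domain. The KRAB domain binds the scaffold protein TRIM28, which brings in the histone H3 lysine methyltransferase SETDB1 and heterochromatin proteins such as CBX5, and the bound DNA, often a retroelement, is silenced. The genes arose by repeated local duplication, so neighbours resemble each other in sequence and in promoter. SLU7 is a second-step splicing factor that takes part in the choice of the AG at the 3′ end of an intron.

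Control libraries held 7736584 to 8693977 estimated counts and knockdown libraries 5191452 to 6315740, so that the knockdown values are the less precise. SLU7 itself was measured at 20.9, 17.1 and 18.3 CPM (counts scaled to a common library size with edgeR's TMM factors) in the controls, against 9.24, 8.11 and 10.5 CPM after knockdown. No knockdown library reached the lowest control, and SLU7 fell by 1.02 on the log2 scale (SE 0.185, edgeR adjusted p = 0.0139). In TPM, which also divides by transcript length, its groups overlapped, at 4.69, 3.46 and 5.96 TPM in the controls against 4.12, 4.34 and 4.67 TPM after knockdown, and limma on log2(TPM + 1) gave a change of -0.06 (adjusted p = 0.868, over a range of 0.00172 to 0.868 in 18 alternatives). In the limma fit the median of all genes was itself at 0.35. All 15 hepatocyte markers had a mean of at least 1 TPM, while the endothelial list summed to between 3.32 and 4.86 CPM, with KDR at 0. The immune list summed to between 49.2 and 67.9 CPM, with 2 of its 6 genes at a mean of at least 1 TPM. The fetal liver list summed to between 15.7 and 26.9 CPM, with 1 of its 3 genes at that level and DLK1 at 0. The fibroblast list, with COL3A1 at 0, summed to 14.1 to 24.9 CPM in the controls and 11.54 to 13.1 CPM in the knockdowns, and its part in the results was not tested. A pair of libraries, the first control and the third knockdown, lay away from their groups, and their deviations ran together across genes (r = 0.44).

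The zinc finger genes were expressed at low levels in every library. Of the 48, 42 were abundant enough for the test, with means of 2.50 CPM (ZNF17) to 25.3 CPM (ZNF544), and 6 were not (ZNF582, ZNF547, ZNF418, ZNF135, ZNF837 and ZNF132, with means of 0.125 to 1.41 CPM). After SLU7 knockdown 6 of the 42 rose, ZNF419, ZNF549, ZNF304, ZNF134, ZNF551 and ZFP28, by 1.69 to 2.07 times, and 1 fell, ZNF324, to 50.9% of its control level. These 7 are 16.7% of the members tested, near the 13.8% called among all 17097 genes tested (edgeR's quasi-likelihood test, Benjamini-Hochberg adjusted over all genes, threshold 0.05). Below, rose and fell are said of genes that passed this test. By direction the members called higher made 14.3%, against a background of 5.93%, and the 1 called lower made 2.38%, against 7.86%. Further, 30 of the 42 had a log2 fold change above 0, where 49.5% of all genes did, and the members' median was 0.29 against -0.01 for all genes tested. Since the members were chosen with earlier results of these data known, these shares are descriptions and carry no test.

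Among 407 other tested genes named ZNF and a number, 42 rose and 4 fell, with a median log2 fold change of 0.36. The 179 of these elsewhere on chromosome 19 had a median of 0.38, with 11 higher and 1 lower. Both medians were above that of the distal 19q13.43 genes. Above 0 were 75.9% of the 407 and 84.9% of the 179, against 71.4% of the members. Called higher were 10.3% and 6.15%, against 14.3% of the members. No difference between the lists was tested.

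**Figure D1:**
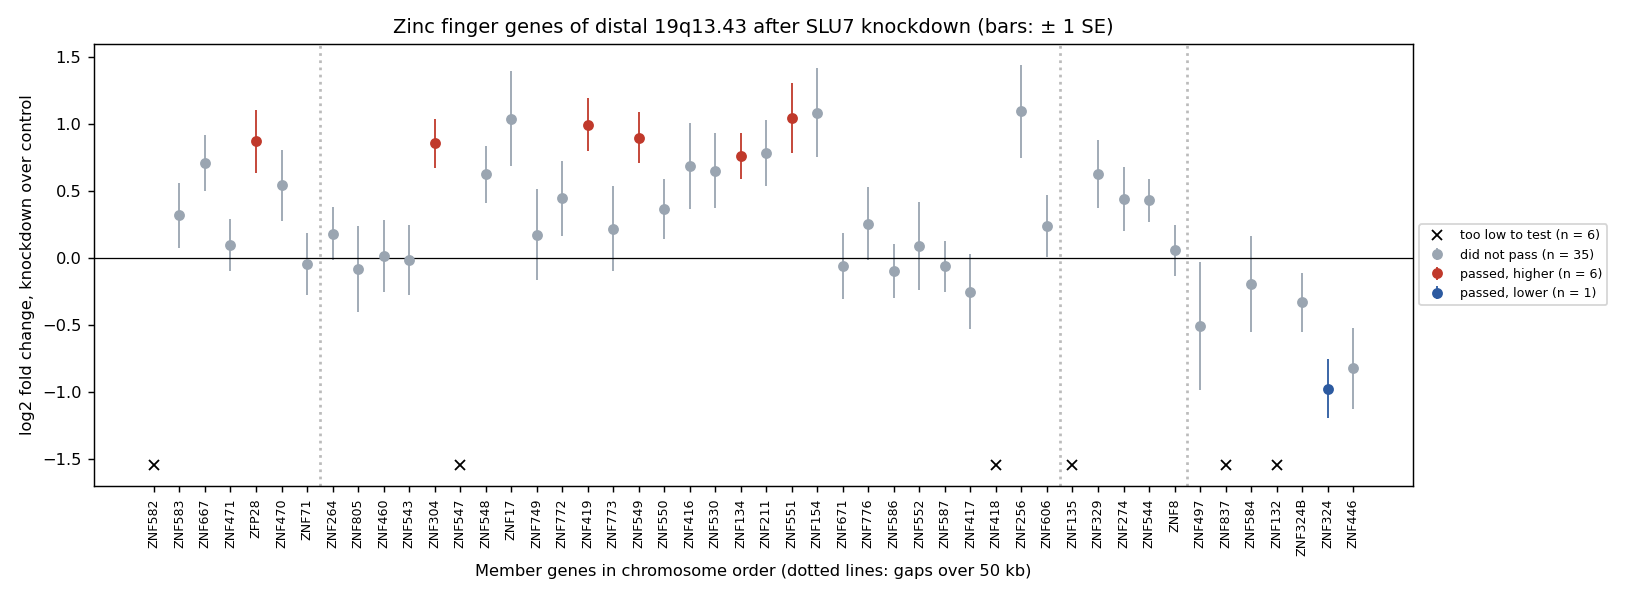
Log2 fold change of knockdown over control (y axis) for the 48 zinc finger genes in chromosome order (x axis), from the edgeR fit on 3 libraries per group. Points are estimates, bars are ± 1 SE, dotted lines mark the gaps over 50 kb (50000 bases), and crosses at the bottom mark the 6 genes too low to test. The 6 genes that passed the test as higher lie in the first 2 blocks, and all 5 tested genes to the right of the last line are below 0.

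Of the genes that rose, ZNF419 had the smallest p. It lies at chr19:57487711-57496097 and is known as the source of a minor histocompatibility antigen. ZNF419 was at 10.3, 9.91 and 8.43 CPM in the controls, against 15.5, 20.3 and 21.5 CPM in the knockdowns. Every knockdown library was above every control, and the log2 fold change was 0.997 (SE 0.196, edgeR adjusted p = 0.0167). ZNF549 (chr19:57527325-57557542), which overlaps ZNF550 on the opposite strand over 473 exonic bases, was at 9.29, 10.8 and 10.99 CPM in the controls, against 22.8, 17.1 and 18.1 CPM in the knockdowns. Its groups did not overlap either, with knockdown replicate 1 highest, and it rose by 0.90 on the log2 scale (SE 0.187, edgeR adjusted p = 0.0195). No strand setting of the counting is given in the sources used here, so reads of genes on opposite strands cannot be told apart.

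ZNF304 (chr19:57351307-57359898), a KRAB protein described as a guide of transcriptional silencing in colorectal cancer cells, was at 6.41, 6.03 and 6.90 CPM in the controls, against 11.9, 11.98 and 11.2 CPM in the knockdowns. Its libraries were tightly grouped, with SDs of 0.438 and 0.410 CPM (n = 3 each), and it rose by 0.86 (SE 0.186, edgeR adjusted p = 0.0222). ZNF134 (chr19:57614233-57624723), a C2H2 zinc finger gene with 0.504% of its 31-base words shared with other genes, was at 8.04, 8.57 and 8.43 CPM in the controls, against 14.8, 14.0 and 13.7 CPM in the knockdowns. The rise of ZNF134 was 0.76 (SE 0.173, edgeR adjusted p = 0.0247), with no overlap between the groups. By CPM these were the most even of the genes that rose. In TPM the groups of ZNF134 overlapped, at 1.24, 0.994 and 2.61 TPM in the controls against 2.22, 3.47 and 2.81 TPM in the knockdowns. Its adjusted p ranged from 0.0172 to 0.607 in 18 alternatives to the edgeR fit.

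ZNF551 (chr19:57681969-57717301) varied more, at 7.66, 5.09 and 8.56 CPM in the controls, against 17.4, 15.9 and 10.8 CPM in the knockdowns. Knockdown replicate 3 was the nearest to the controls, and the gene rose by 1.05 (SE 0.264, edgeR adjusted p = 0.0335). ZFP28 (chr19:56538948-56556810), a KRAB zinc finger gene and the only one of the first block to pass the test, was at 5.65, 4.96 and 8.18 CPM in the controls, against 10.9, 11.2 and 12.3 CPM in the knockdowns. Its groups did not overlap, although control replicate 3 was high, and the rise was 0.87 (SE 0.236, edgeR adjusted p = 0.0414).

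ZNF324 (chr19:58467045-58475436), the only member that fell, was at 15.6, 19.8 and 22.6 CPM in the controls, against 11.2, 10.3 and 7.85 CPM in the knockdowns. All knockdown libraries were below all controls, and the log2 fold change was -0.98 (SE 0.217, edgeR adjusted p = 0.0231). Its exons overlap those of ZNF446 over 1420 bases on the same strand, 24.3% of its 31-base words occur in ZNF446, and 17.7% of those of ZNF324B, its near copy, occur in ZNF324. Summed with ZNF446 the pair changed by -0.95 (edgeR adjusted p = 0.0210), and summed with ZNF324B by -0.75 (edgeR adjusted p = 0.0298). With offsets for GC content and length ZNF324 was at -0.44 and did not pass (edgeR adjusted p = 0.201, over a range of 0.00288 to 0.217 in 18 alternatives).

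The next members by p had groups that did not overlap and yet missed the threshold. ZNF667 was at 8.79, 8.71 and 7.92 CPM in the controls, against 17.1, 13.3 and 11.2 CPM in the knockdowns (log2 fold change 0.71, SE 0.210, edgeR adjusted p = 0.0542). ZNF154, whose promoter is often found methylated in tumours, was at 1.51, 2.28 and 3.07 CPM against 4.93, 4.06 and 5.61 CPM (1.09, SE 0.334, edgeR adjusted p = 0.0622). ZNF211 was at 3.89, 3.62 and 4.86 CPM against 8.31, 6.27 and 6.73 CPM (0.79, SE 0.247, edgeR adjusted p = 0.0652). In all, 17 of the 42 tested members (40.5%) had every knockdown above every control, where 17.8% of all genes did, and 3 (7.14%), ZNF324, ZNF324B and ZNF446, had every knockdown below, where 18.8% of all genes did. These 20 make 47.6% of the members tested, against 36.6% of all genes with groups that did not overlap, and in the other 22 the groups overlapped. Of the 407 other tested ZNF genes, 36.4% had every knockdown above, 5.41% every knockdown below, and 41.8% either. Every knockdown was above in 36.3% of the 179 elsewhere on chromosome 19. Besides those with values given, the 17 were ZNF548, ZNF17, ZNF772, ZNF416, ZNF530, ZNF256, ZNF329 and ZNF544, at log2 fold changes of 0.43 to 1.10 with none past the test.

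**Figure D2:**
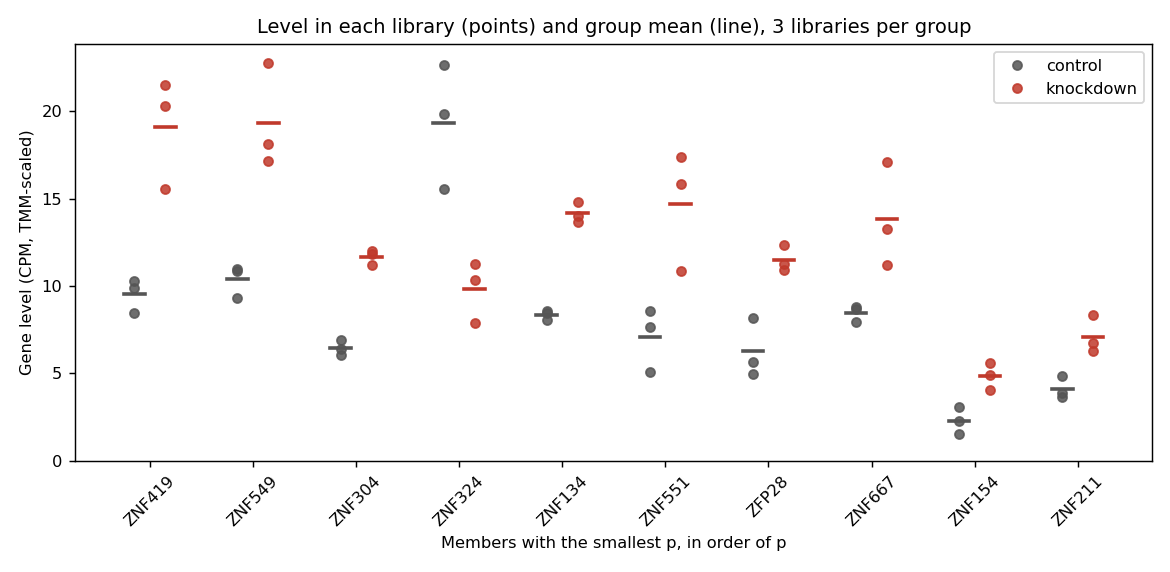
Level in each library (points, in CPM scaled with TMM factors, y axis) and group mean (line) for the 10 members with the smallest p (x axis), 3 libraries per group, controls grey and knockdowns red. In all 10 genes the groups do not overlap, and ZNF324 is the one with the controls on top, at 15.6 to 22.6 CPM against 7.85 to 11.2 CPM.

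None of the 6 most abundant members passed the test. ZNF544, highest by CPM and also per length with a mean of 20.3 TPM, was at 21.7, 20.9 and 22.0 CPM in the controls, against 33.7, 25.8 and 27.5 CPM in the knockdowns (log2 fold change 0.43, SE 0.162, edgeR adjusted p = 0.106). ZNF274, which binds the 3′ ends of zinc finger genes and brings SETDB1 to them, was at 21.5, 11.3 and 16.6 CPM against 19.6, 23.04 and 24.7 CPM (0.44, SE 0.240, edgeR adjusted p = 0.238), with control replicate 1 inside the range of the knockdowns. ZNF470 was at 16.5, 15.1 and 9.97 CPM against 14.3, 21.2 and 25.2 CPM (0.54, SE 0.263, edgeR adjusted p = 0.192). The groups of ZNF274 and ZNF470 overlapped, and those of ZNF544 did not. ZNF460 was at 17.2, 23.4 and 23.8 CPM against 28.0, 23.4 and 13.5 CPM, a difference of 0.02 (SE 0.267). ZNF264 was at 15.8, 22.8 and 21.6 CPM against 26.2, 22.7 and 19.3 CPM (0.18, SE 0.199). ZNF471 was at 22.4, 16.6 and 17.5 CPM against 18.8, 17.7 and 24.1 CPM (0.10, SE 0.195). In these last genes the knockdown libraries were spread around the controls, and knockdown replicate 3 was the lowest of its group for ZNF460 and the highest for ZNF471.

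Most calls on single genes were lost when 1 library other than control replicate 1 was left out. Without control replicate 1 all 7 were kept and 10 of 43 members passed, where 4456 of 17581 genes did. Without control replicate 2, control replicate 3 or knockdown replicate 2 none passed. Without knockdown replicate 1 only ZNF419 did, and without knockdown replicate 3 only ZNF549 and ZNF551 did. The direction of all 7 was the same in each of these fits. Over all genes the same omissions left 4456, 451, 581, 331, 0 and 1027 calls in the order control replicates 1, 2 and 3 and knockdown replicates 1, 2 and 3. Without both libraries that stood apart, 9 members passed, 7 higher and 2 lower, among them 6 of the 7, with ZFP28 lost and ZNF548, ZNF667 and ZNF446 added, but 29.8% of all genes passed in that fit, 14.1% higher and 15.7% lower. The 7 higher were of 43 members tested, near that background. With offsets for transcript length ZNF324 alone passed, in a fit that called 5.6% of all genes. With limma on log2(TPM + 1) 15 members passed, all higher, in a fit that called 18.3% of all genes, with 17.4% of all genes called higher, and in which the median of all genes was itself at 0.35.

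The array falls into 4 blocks separated by gaps of more than 50 kb (50000 bases), and in the last of them, nearest the end of the chromosome, every tested member was below 0. The first block runs from ZNF582 to ZNF71 (chr19:56375846-56626481), with 7 members, 6 tested, 1 higher and a median log2 fold change of 0.43. The second, from ZNF264 to ZNF606 (chr19:57191500-58003349), holds 29 members, of which 27 were tested and 5 rose, with a median of 0.37. The third, from ZNF135 to ZNF8 (chr19:58059239-58302805), has 5 members, 4 tested, none past the test and a median of 0.44. In the fourth, from ZNF497 to ZNF446 (chr19:58354357-58481230), all 5 tested members of 7 were below 0, with a median of -0.51, and ZNF324 fell. The gaps between the blocks are 565018, 55889 and 51551 bases. The blocks were drawn with the results in view, so the difference between them carries no test.

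GC content moved with this order. The median GC content of the transcripts was 47.1%, 50.2% and 53.6% over all members of the first 3 blocks and 61.3% in the fourth. Over the 42 tested members the log2 fold change and GC content had a Pearson r of -0.58, and of -0.32 with offsets for GC content and length, across genes that share libraries and sequence. Over all genes tested the median log2 fold change was 0.10 for the 4029 genes with 45 to 50% GC, -0.04 for the 3202 with 50 to 55%, -0.25 for the 2642 with 55 to 60% and -0.53 for the 1557 with 60 to 65%. Below 0 were 68.0% of all tested genes with 55 to 60% GC and 82.0% of those with 60 to 65%. The offsets were fitted in each library to the trend of all genes, so by construction they take out a GC trend between the groups. All genes with 60 to 65% GC then had a median of -0.036. With offsets for GC content and length the median of the fourth block was -0.04, with 3 of 5 below 0, ZNF497 was at 0.12 and ZNF324B at 0.03. The medians of the first 3 blocks, in order, were 0.30, 0.44 and 0.51 with these offsets. ZNF134, ZNF304, ZNF419, ZNF549 and ZNF551 still passed with these offsets, ZNF211 was added, and ZFP28 and ZNF324 did not pass. All 6 were higher, in a fit that called 11.1% of all genes, with 5.28% of all genes called higher.

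**Figure D3:**
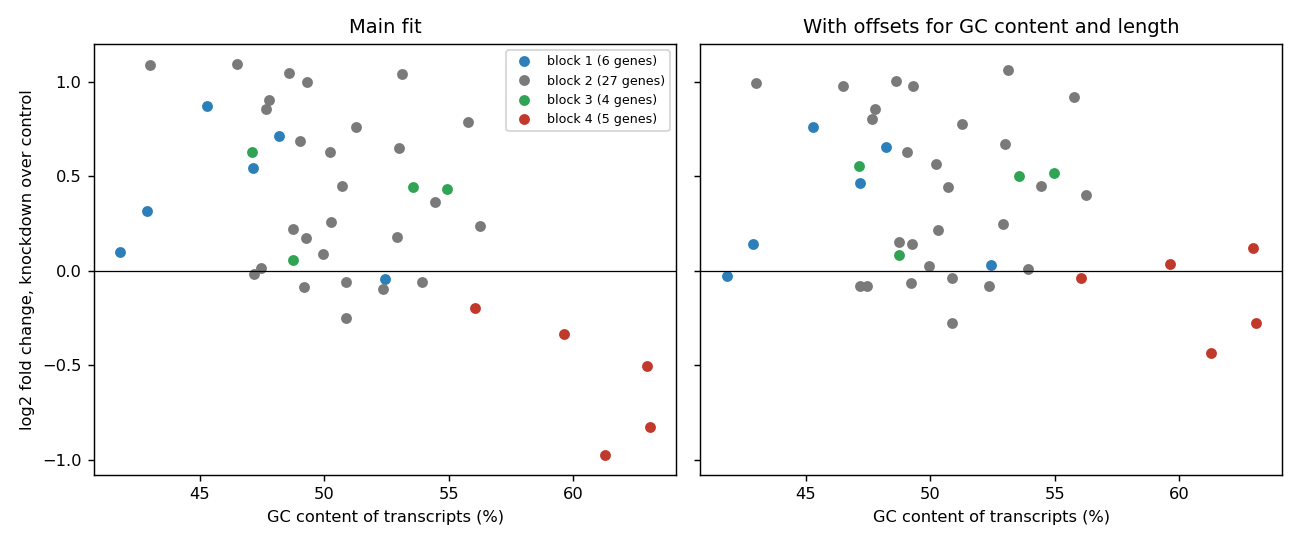
Log2 fold change of knockdown over control (y axis) against the GC content of each gene's transcripts in percent (x axis) for the 42 tested members, coloured by block, without (left) and with (right) offsets for GC content and length. The 5 genes of the fourth block, red, lie between -0.98 and -0.19 on the left and between -0.44 and 0.12 on the right.

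The promoters of the array share short sequences, and those of 3 genes that rose and of the gene that fell are shown because each holds the same element, in the genes that rose and in the gene that fell. Of the 48 members 43 had a promoter in the RefSeq table (GRCh38.p14, 250 bases before to 50 after the start). The sequences are printed 5′ to 3′ and end before the gene start of both RefSeq and GENCODE 29. Capitals mark ACTNC followed after 5 bases by CCA, letters that resemble part of the known motif of the activator ZNF143, and CCGGAA or its reverse complement, the core read by ETS factors.
ZNF419 promoter, chr19:57487500-57487710, + strand: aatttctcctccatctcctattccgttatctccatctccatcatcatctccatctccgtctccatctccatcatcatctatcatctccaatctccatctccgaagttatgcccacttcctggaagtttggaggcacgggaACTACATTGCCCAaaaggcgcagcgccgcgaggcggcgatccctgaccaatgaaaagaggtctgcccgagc
ZNF549 promoter, chr19:57527106-57527324, + strand: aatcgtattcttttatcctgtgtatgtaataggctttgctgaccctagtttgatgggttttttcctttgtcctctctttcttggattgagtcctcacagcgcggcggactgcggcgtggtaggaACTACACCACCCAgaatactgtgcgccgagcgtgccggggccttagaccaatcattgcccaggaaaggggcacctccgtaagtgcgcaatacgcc
ZNF134 promoter, chr19:57613992-57614232, + strand: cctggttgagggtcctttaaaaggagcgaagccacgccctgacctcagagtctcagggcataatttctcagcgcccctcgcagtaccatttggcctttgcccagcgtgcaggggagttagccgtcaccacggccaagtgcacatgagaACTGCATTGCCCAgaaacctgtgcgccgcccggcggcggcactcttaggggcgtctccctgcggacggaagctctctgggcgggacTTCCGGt
ZNF324 promoter, chr19:58466830-58467044, + strand: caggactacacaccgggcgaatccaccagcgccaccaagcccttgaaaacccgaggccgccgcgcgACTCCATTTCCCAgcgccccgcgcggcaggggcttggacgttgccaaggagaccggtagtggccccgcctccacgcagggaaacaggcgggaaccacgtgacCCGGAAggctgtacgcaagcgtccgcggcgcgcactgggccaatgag

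The letters ACTNC, then 5 of any base, then CCA, searched on both strands and chosen after the promoters had been looked at, occurred in 26 of the 43 member promoters (60.5%), in 20.4% of 387 promoters of other ZNF genes and in 7.12% of all 35097 promoters of the same length. The narrower form ACTACA, then 3 of any base, then CCCA, which is contained in it, occurred in 37.2%, 12.7% and 1.64%. ZNF304 carried it in the form ACTACGTTACCCA and ZNF551 as ACTACATTATCCA, so all 5 genes that rose and had a promoter in the table held the wider form, as did ZNF324, against 16 of 31 of those that did not pass. ACTACAA, also searched as a ZNF143 motif, was in 4.65% of member promoters, 5.69% of those of other ZNF genes and 2.8% of all. CCGGAA was in 72.1% of member promoters, 48.1% of those of other ZNF genes and 17.3% of all. In the same order, members, other ZNF genes and all, CCAAT was in 62.8%, 47.0% and 34.6%. GGGCGG was in 65.1%, 63.3% and 44.9%, and TATAAA in 2.33%, 3.10% and 11.5%. Member promoters held a median of 23 CpG, against 14 in all. A match is a description of letters and not a site.

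At the level of transcripts, the tables list 294 transcripts of the 48 genes, of which 78 were abundant enough for the test. None passed (edgeR, Benjamini-Hochberg adjusted over 43141 transcripts, of which 0% passed), and 5 had an unadjusted p under 0.05, where 16.1% of all tested transcripts did. These 5 were ZNF324-201, lower, and ZNF419-213, ZNF134-201, ZNF551-201 and ZNF530-204, higher. Of the 8 retained-intron transcripts tested, 5 were above 0, with a median log2 fold change of 0.60 (0.35 for all 7692 such transcripts), and of the 59 coding transcripts 33 were, with a median of 0.23 (-0.20 for all 22790). Retained-intron transcripts keep at least 1 intron and are annotated as not coding.

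ZNF419 was the 1 member of 14 tested (7.14%) that passed the Simes test of class usage, near the 7.88% of all 6828 genes tested, and most of its counts lay on a retained-intron transcript. ZNF419-213, of 5542 bases, took 69.0, 49.8 and 44.9 estimated counts in the controls, against 90.5, 99.0 and 109.4 in the knockdowns, although the knockdown libraries were smaller. In CPM its retained-intron class was at 8.80, 6.93 and 5.74 in the controls, against 13.9, 18.5 and 20.5 in the knockdowns, with no overlap. The coding transcripts of ZNF419 were at 1.52, 2.93 and 2.67 CPM in the controls, against 1.55, 1.88 and 1.19 CPM in the knockdowns, and these groups overlapped through control replicate 1. The coding share of the gene was 25.4% ± 9.30 (SD, n = 3) in the controls and 8.25% ± 2.42 (SD, n = 3) in the knockdowns. Within ZNF419 the coding class changed by -1.14 on the log2 scale relative to the gene as a whole (edgeR diffSpliceDGE, adjusted p of the class = 0.047). The Simes adjusted p of the gene was 0.0454. Its retained-intron class changed by 0.20 relative to the gene as a whole and did not pass (edgeR diffSpliceDGE, adjusted p of the class = 0.523).

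The count behind the coding share was small, 12.1, 21.9 and 20.9 coding counts against 10.1, 10.2 and 6.4. Counted over coding transcripts only, ZNF419 was at -0.54 and did not pass (edgeR adjusted p = 0.436, over a range of 0.00341 to 0.436 in 18 alternatives), so the rise of the gene turned in direction when the retained-intron transcript was left out. The class result for ZNF419 was lost with edgeR's legacy fit (adjusted p = 0.219, over a range of 0.0264 to 0.253 in 12 alternatives). It was also lost when any library other than control replicate 1 was left out, with the change then between -1.25 and -0.965. The p-values do not cover the uncertainty of splitting reads between transcripts. Of the 31-base words of ZNF419-213, 63.4% (3471 of 5479) occur in no other ZNF419 transcript, while 20.0% of those of the gene as a whole are shared with other genes, most often ZNF773.

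The introns that ZNF419-213 keeps and that other ZNF419 transcripts remove end in pairs of AGs close together, and are shown here because SLU7 is known for its part in 3′ splice site choice. The 2 donor sites and 4 acceptor sites were read from GRCh38, each donor as 3 exonic and 6 intronic bases with GT in capitals, each acceptor as 25 intronic and 3 exonic bases with its AG in capitals.
Donor of chr19:57487984-57490130: cagGTgagc
Donor of chr19:57490186-57491467: gagGTaagt
Acceptor of chr19:57487984-57490130: caacatcactgtctggttctcatAGtct
Acceptor of chr19:57487984-57490146: ttctcatagtcttgattttccatAGgtt
Acceptor of chr19:57490186-57491467: ataaactctactctgtccatcttAGcag
Acceptor of chr19:57490186-57491470: aactctactctgtccatcttagcAGggc

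The second AG of the first pair lies 16 bases after the first, and that of the second pair 3 bases after. The tables hold no junction reads, so the use of either AG was not measured. Whether reads on these introns came from unspliced precursor, from the annotated transcript or from DNA was not tested.

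Summed over all 48 genes, the retained-intron class took 9.33%, 7.89% and 9.30% of the estimated counts in the controls, against 9.83%, 13.37% and 13.2% in the knockdowns. All knockdowns were above all controls, although knockdown replicate 1 was by little, and the means were 8.84% ± 0.822 and 12.1% ± 1.99 (SD, n = 3 each), a difference of 3.28 percentage points. Over all genes with a coding transcript the share was 10.04% ± 0.371 in the controls and 13.42% ± 0.124 in the knockdowns (SD, n = 3 each), a difference of 3.38 points. ZNF419 held 26.8% and ZNF274 35.5% of the members' retained-intron counts, and without ZNF419 the share was 7.14% ± 0.880 in the controls and 8.64% ± 1.23 in the knockdowns (SD, n = 3 each), with knockdown replicate 1 at 7.28%, below control replicate 3 at 8.01%. The coding class went from 81.1% ± 2.16 to 75.1% ± 3.83 (SD, n = 3 each), and its groups overlapped.

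**Figure D4:**
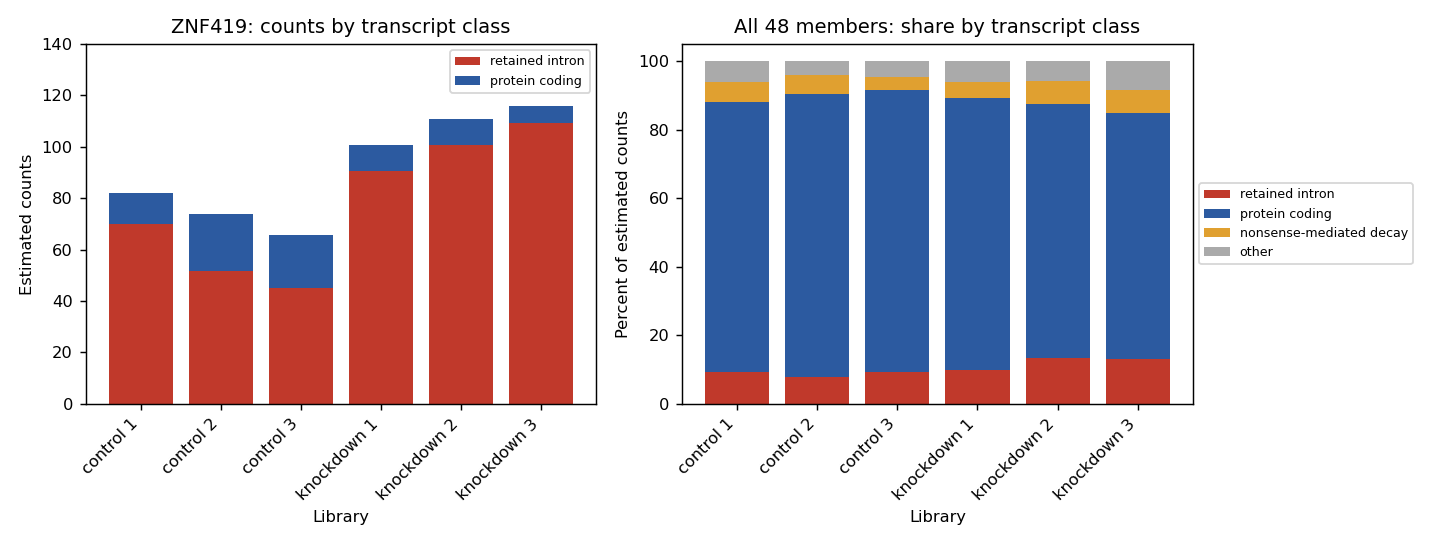
Left, estimated counts (y axis) of ZNF419 by transcript class in each of the 6 libraries (x axis). Right, share of the estimated counts of all 48 members, in percent (y axis), by transcript class in the same libraries. The retained-intron part of ZNF419 is 44.9 to 70.0 counts in the controls and 90.5 to 109.4 in the knockdowns, and over all members it is 7.89 to 9.33% and 9.83 to 13.37%.

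ZNF274, most of whose counts also lay on retained-intron transcripts, had a retained-intron share of 76.7% ± 7.01 in the controls and 83.9% ± 6.35 in the knockdowns (SD, n = 3 each), and its class usage did not pass (edgeR Simes adjusted p = 0.530). ZNF530-204 was at 1.21, 1.34 and 1.82 CPM in the controls, against 2.93, 3.47 and 3.40 CPM in the knockdowns, again without overlap (log2 fold change 1.03, edgeR adjusted p = 0.287). For ZNF671, whose promoter is often methylated in tumours, the share of transcripts marked for nonsense-mediated decay was 42.2%, 37.4% and 12.7% in the controls, against 69.8%, 76.5% and 33.6% in the knockdowns, on 5.1 to 23.2 counts. Its groups overlapped, and the gene passed the gene-level F test of class usage (edgeR adjusted p = 0.0499) but not the Simes test (edgeR adjusted p = 0.226). By that F test 2 of 14 members passed, ZNF419 and ZNF671, where 20.3% of all genes did. By transcript usage none of 24 members tested passed by either test, where 2.9% of all genes passed the Simes test and 4.98% the F test. At an unadjusted Simes p under 0.05 there were 0 members, where 8.79% of all genes were under it.

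For several members the split of reads between near copies limits what the values say. The share of 31-base words found in other genes was 53.9% for ZNF446, 50.02% for ZNF417, 45.4% for ZNF587, 43.1% for ZNF497 and 39.8% for ZNF135. ZNF417 and ZNF587, a recent pair known to bind HERV-K elements, were at -0.25 (SE 0.278) and -0.06 (SE 0.190), and summed with their relative ZNF587B the 3 genes were at 0.13 (edgeR adjusted p = 0.586). ZNF587B by itself, which is not 1 of the 48 and was the most abundant of the 3 by CPM, was at 0.45 (SE 0.276).

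The corepressor genes that KRAB proteins rely on were read from the same fit. Of 36 such genes, all tested, 4 rose and none fell (11.1%, against 13.8% of all genes), and the median log2 fold change was 0.03. TRIM28, the scaffold, was at 45.5, 66.8 and 61.8 CPM in the controls, against 46.8, 45.7 and 40.4 CPM in the knockdowns (-0.39, SE 0.176, edgeR adjusted p = 0.165), with overlap through control replicate 1. SETDB1 was at 34.7, 31.7 and 35.0 CPM against 42.0, 39.1 and 45.4 CPM (0.32, SE 0.142, edgeR adjusted p = 0.160), and CBX5 at 97.3, 109.0 and 107.5 CPM against 84.0, 87.8 and 66.4 CPM (-0.40, SE 0.158, edgeR adjusted p = 0.123). The groups of SETDB1 and CBX5 did not overlap, in opposite directions, and neither passed. With limma on log2(TPM + 1) TRIM28 and CBX5 were at 0.37 and 0.36, next to the median of all genes in that fit, 0.35.

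Among those that rose were MORC2 and RESF1, which act in silencing with the HUSH complex and SETDB1, and MORC3, a chromatin ATPase. MORC2 was at 38.2, 30.7 and 35.4 CPM in the controls, against 55.6, 58.4 and 64.7 CPM in the knockdowns (0.78, SE 0.150, edgeR adjusted p = 0.0163). RESF1 rose by 0.82 (SE 0.208) and MORC3 by 0.61 (SE 0.162). The groups of these 3 genes did not overlap. MORC3 did not pass with DESeq2 (adjusted p = 0.0502, over a range of 0.00961 to 0.555 in 18 alternatives). None of the corepressor genes passed without control replicate 2 or 3 or knockdown replicate 1 or 2. Without control replicate 1, 9 of 36 passed, where 4456 of 17581 genes did. Without knockdown replicate 3, 2 of 36 passed, EHMT2 and RESF1, where 1027 of 18506 genes did. Over coding transcripts only, 3 of 36 passed, DNMT1, EHMT1 and RESF1, where 1414 of 11507 genes did. Of these 3, 1 was higher and 2 were lower, and MORC2 and MORC3 did not pass.

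Of the 95 other genes that lie between the members, 30 were tested and 2 passed (6.67%, against 13.8% of all genes). ERVK3-1, a gene derived from an endogenous retrovirus at chr19:58305319-58315663, next to ZNF8, was at 24.0, 17.0 and 19.04 CPM in the controls, against 34.8, 44.6 and 48.6 CPM in the knockdowns. It rose by 1.09 (SE 0.195, edgeR adjusted p = 0.0131), while the neighbouring ZNF8, with which it shares a read-through gene, was at 0.06 (SE 0.190). AC012313.8, at chr19:58440448-58445849 between ZNF132 and ZNF324B in the fourth block, was at 10.1, 9.78 and 9.71 CPM against 6.62, 4.98 and 4.86 CPM, and fell by 0.84 (SE 0.214, edgeR adjusted p = 0.0352). Both neighbours had groups that did not overlap. ERVK3-1 did not pass without control replicate 2, control replicate 3 or knockdown replicate 2, nor over coding transcripts only (0.60, edgeR adjusted p = 0.182, over a range of 0.000265 to 0.182 in 18 alternatives). AC012313.8 did not pass when any library other than control replicate 1 was left out. Neither neighbour passed with offsets for transcript length, in a fit that called 5.6% of all genes. With the replicate number as a block neither passed, in a fit that called 0 of all genes.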

How the data were processed

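RNA of PLC/PRF/5 cells was sequenced from 3 control and 3 SLU7 knockdown libraries, made with a ScriptSeq kit per the labels' protocols. Per the submitters' processing notes, the tools were sleuth 0.30.0, kallisto 0.46.1, Trimmomatic 0.38 and FastQC 0.11.8, with GRCh38 as the build. The deposited tables give estimated counts and TPM per transcript, made by the authors. Neither the GENCODE release nor the strand setting of the counting is given in the sources used here. Positions, overlaps, GC content and splice sites came from GENCODE 29 on GRCh38, and promoters from RefSeq on GRCh38.p14.

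Estimated counts of 234485 transcripts were rounded and summed per gene. The main test was edgeR 4.0.16 (R 4.3.3), quasi-likelihood, with TMM factors and filterByExpr at a minimum count of 10, adjusted by Benjamini-Hochberg over all genes at 0.05. Transcript and class usage were tested with diffSpliceDGE on the whole table. DESeq2 1.42.0 and limma 3.58.1 served as alternatives. Scripts were tested on simulated data. The members and gene lists were chosen with earlier results of these data known. Values per library are given for the 10 members with the smallest p, members past the usage tests and the 6 of highest mean CPM. Also named are TRIM28, SETDB1, CBX5, cofactors and neighbours past the test, and SLU7; other members were named after their values were seen, and 1 cofactor past the test is not reported here. A 31-base word is any run of 31 bases of a gene's transcripts. Totals per library bound the precision, and no interval covers the splitting of reads between similar transcripts.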

Additional observations from a re-analysis of the deposited data

How the results depend on the processing

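The 7 members called kept their calls with RLE size factors, without a filter, with another filter on low counts (a mean of 1 CPM and a count of 10 in 3 libraries), with DESeq2, without mitochondrial and structural RNA genes, and when counts were summed before rounding, the last 1 chosen after seeing the data. With GC content and length offsets 5 of the 7 were kept and with coding transcripts only 6. The replicate block, with the number as a block, left 0 members, 0 corepressor genes, 0 neighbours, 0 other ZNF genes and 0 members with changed class usage. The gene test of that fit called 0 of all 17097 genes. The labels do not say whether the numbers pair the libraries. In deviations from their group means, same-numbered libraries had correlations of -0.41, 0.11 and -0.37. Control replicate 1 ran with knockdown replicate 3 at 0.44, and control replicate 3 with knockdown replicate 1 at 0.38. Such deviations sum to 0 within a group, so these correlations cannot settle the pairing. Limma on log2(TPM + 1), which called 18.3% of all genes, called 15 members, 11 corepressor genes and 111 other ZNF genes. Length offsets, with 5.6% of all genes called, left 1 member, 1 corepressor gene, 1 neighbour and 20 other ZNF genes. Without control replicate 1 and knockdown replicate 3, where 29.8% of all genes passed, 17 corepressor genes, 8 neighbours and 130 other ZNF genes did. Class usage then called 2 members and transcript usage 3, and the shares of all genes called by these are not reported here. Neighbours called were 4 without a filter and 0 with coding transcripts only. Class usage called 0 members without a filter, 0 with the legacy fit (chosen after seeing the data) and 2 by the F test. Leaving out 1 library at a time gave 0 to 10 members, 0 to 9 corepressor genes, 0 to 5 neighbours, 0 to 96 other ZNF genes and 0 to 1 member by class usage. The gene tests of those fits called 0 to 4456 of all genes. The retained-intron share was 1.24 points higher in the knockdowns as a mean over members that weights each alike. Signs turned for ZNF419 with coding transcripts only (-0.54), for ZNF460 without a filter (-0.011), with the replicate block (-0.027), with DESeq2 (-0.008) and with GC content offsets (-0.078), and for ZNF471 with length (-0.16) and GC content offsets (-0.027). TRIM28 (0.37) and CBX5 (0.36) were above 0 with limma, in which the median of all genes was 0.35. The sum of ZNF587, ZNF417 and ZNF587B was at 0.13, which is not an estimate of ZNF587 (-0.06). ZNF460 ranged from -0.22 to 0.26 and ZNF471 from -0.046 to 0.24 when 1 library was left out. The cause of these changes was not tested. Depth limits the 6 members that were too low to test.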
